A study of Mus musculus with 2 samples.

Results

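Collagens are the structural proteins of the extracellular matrix, and the genes described here are the 38 collagen genes of the table whose symbols have the form Col, a type number, the letter a and a chain number, and that do not lie on chromosomes 10 or 17. They were chosen by symbol and chromosome from 48550 rows, and 44 rows had such a symbol on any chromosome. Total nuclear RNA was sequenced from F121-6, a line of female mouse ES (embryonic stem) cells that is a hybrid of 129 and cas, so that reads over strain differences could be assigned to the 129 or the cas allele of a gene. The cells were kept with serum and leukaemia inhibitory factor (LIF) on mouse embryonic fibroblasts (MEFs) that mitomycin C had stopped from dividing. The labels do not give the strain of these feeder cells, and both libraries came from cells grown on them. The samples form 1 group of 2 libraries, which the labels do not tie to separate cultures, so p-values measure only the spread between these libraries, which may be technical. Allele-assigned reads numbered 28523744 in library 1 (129 share 53.6%) and 31402765 in library 2 (54.2%).

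Each collagen molecule is a triple helix of 3 chains, encoded by 1 or more genes. The fibrillar collagens, such as types I, III and V, assemble into the banded fibrils of connective tissue and are made in bulk by fibroblasts. Type IV collagen instead forms the sheet-like network of basement membranes, on which epithelia and early embryonic cell layers rest. FACIT collagens attach to the surface of fibrils, type VI forms beaded filaments, type VIII forms hexagonal lattices, and some collagens span the cell membrane.

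For each gene the question was whether the 129 and the cas allele gave different numbers of reads, and whether fibrillar and basement membrane collagens differed in this. Ratios are log2(129/cas) of CPM (reads scaled for the size of their library and allele column), with 0.1 added to each, so that values above 0 are higher from 129 and 0 is the typical gene. Since 129 gave more reads in both libraries, the typical tested gene had 55.6% of its reads from 129. A gene was tested if each library gave it 20 or more allele reads, and called at an adjusted p under 0.05 in limma (Benjamini-Hochberg over all 15509 tested genes). The standard error (SE) rests on the spread between libraries pooled over genes of like abundance, so a gene's own libraries can differ by more than its SE shows.

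Of the 38 genes, 35 were tested and 24 of these (68.6%) were called, against 43.9% of all tested genes. Of the called genes 16 were higher from 129 (45.7%, against 21.9% of all tested genes) and 8 were higher from cas (22.9%, against 22.0%). All 24 had the same direction in both libraries, on which the calls themselves rest. Col1a1, Col1a2, Col3a1, Col5a2, Col8a1 and Col16a1 were called and at least 8-fold higher from 129, which is 17.1% of the tested collagens against 2.30% of all tested genes. Col8a1 and Col16a1 fell below 8-fold (a log2 ratio of 3) with a pseudocount of 0.5 CPM (2.92 and 2.96) or 1 CPM (2.82 and 2.68). This left 4 genes, 11.4% of the tested collagens, against 1.01% and 0.606% of all tested genes. The median ratio over the 35 genes was 0.36 (0.63 in library 1 and 0.29 in library 2), against 0.00 over all tested genes. Scaling both alleles of a library to 1 shared size raised the median of all genes to 0.32, and then the split of called collagens was 21 higher from 129 and 4 from cas. The genes that were not tested, Col4a3, Col9a1 and Col15a1, fell short of 20 reads in at least 1 library. Col4a3 had 18 and 14 reads in libraries 1 and 2, Col9a1 had 15 and 6, and Col15a1 had 19 and 20.

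**Figure D1:**
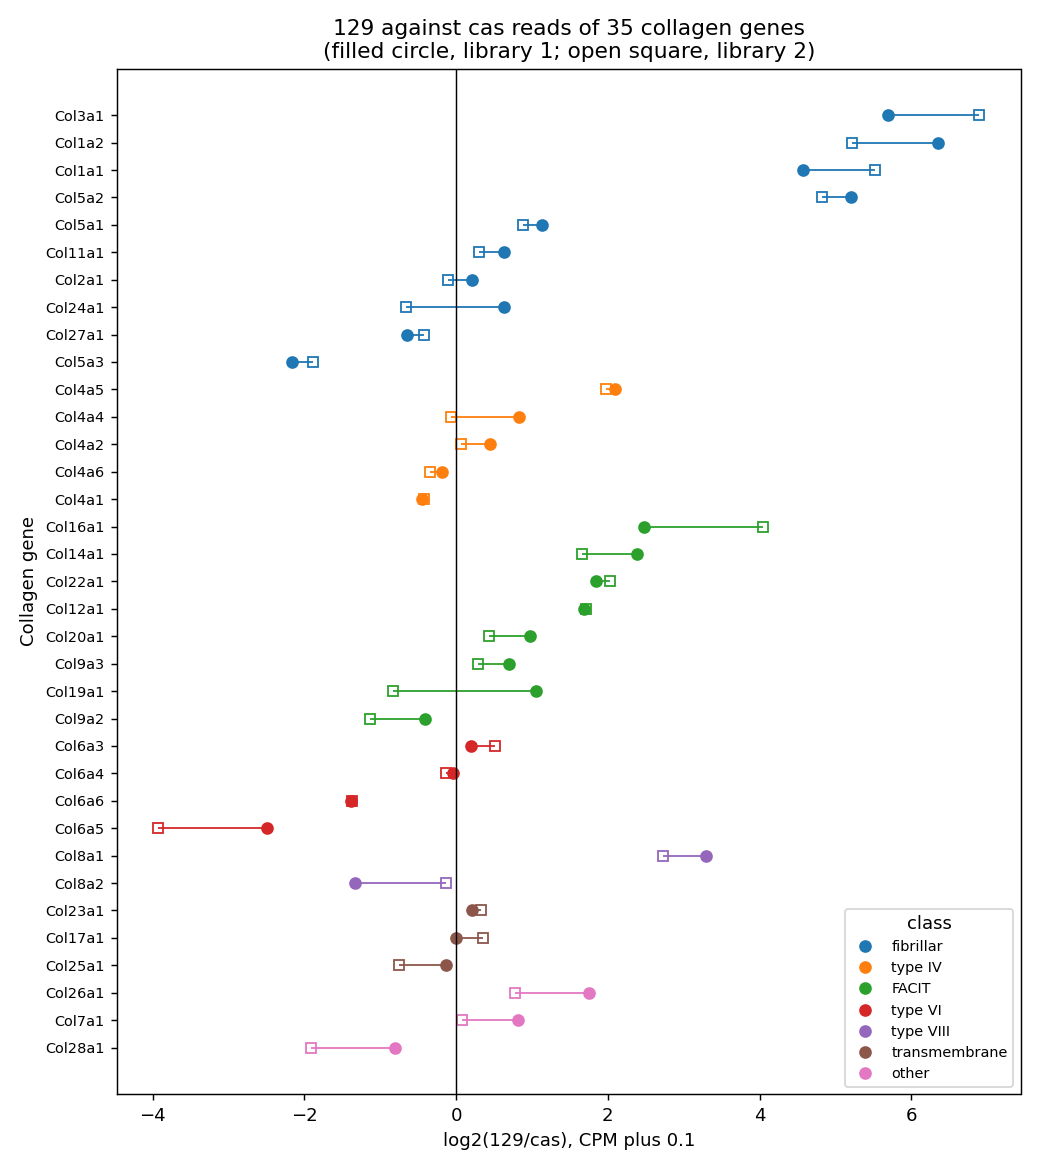
The log2 ratio of 129 to cas reads (x axis) is plotted for each of the 35 tested collagen genes (y axis), coloured by class, with a filled circle for library 1 and an open square for library 2. Col3a1, Col1a2, Col1a1 and Col5a2 lie beyond 4 in both libraries, while the other fibrillar genes lie between -2.17 and 1.13.

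Among the fibrillar collagens, the chains of types I and III and the alpha 2 chain of type V were read almost only from 129. Col1a1, the alpha 1 chain of type I collagen (chromosome 11, 94936224 to 94953042, mm10), had 269 reads from 129 and 8 from cas in library 1, and 434 and 6 in library 2. Its 129 share was thus 97.1% (exact 95% interval 94.4 to 98.7) and 98.6% (97.1 to 99.5), and its log2 ratio was 5.05 (SE 0.41, limma adjusted p = 2.7e-33). Intervals here cover counting error only. Col1a2, its partner chain (chromosome 6, 4504814 to 4541544), had 528 reads from 129 against 4 from cas in library 1, and 783 against 15 in library 2, a log2 ratio of 5.79 (SE 0.34, limma adjusted p = 9.9e-63). Both chains of type I, which are encoded on different chromosomes, thus had 129 shares of 97.1% or more in each library. The size of their p-values depended on the setting. With a filter of 100 reads the limma adjusted p was 5.7e-08 for Col1a1 and 3.2e-09 for Col1a2. Without pairing the alleles by library the limma adjusted p was 1.2e-05 for Col1a1 and 1.3e-05 for Col1a2. Col3a1, the single chain of type III, had 141 and 214 reads from 129 in libraries 1 and 2 against 1 and 0 from cas. In library 2, where cas gave 0 reads, the exact 95% interval of its 129 share was 98.3 to 100.0%. Its log2 ratio of 6.29 (SE 0.70) depends on the added 0.1 CPM, since cas gave 1 read in all. Col5a2 had 1543 reads from 129 and 33 from cas in library 1 and 1865 and 50 in library 2, a log2 ratio of 5.01 (SE 0.18).

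Col3a1 and Col5a2 are neighbours on chromosome 1 with a gap of 24614 bp between their annotated spans, so they need not be independent. Within 500 kb of the pair, the tested genes that are no collagens were Wdr75, with a log2 ratio of -0.03, and Slc40a1, with 1.39. Around Col1a1, 18 tested genes within 500 kb had a median of 0.29 and a highest ratio of 1.96, and around Col1a2 5 had a median of -0.24 and a highest of 0.67. Apart from Col3a1 and Col5a2, which neighbour each other, none of the tested neighbours of these 4 genes reached the 8-fold ratio of the collagens themselves.

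The other 6 fibrillar genes did not share this pattern. Col5a1, which encodes the main partner chain of Col5a2 in type V collagen, had 2396 reads from 129 and 891 from cas in library 1, and 2424 and 1023 in library 2. Its 129 shares of 72.9% and 70.3% lay well below the 97.9% and 97.4% of Col5a2, although both chains enter the same molecule, and its log2 ratio was 1.01 (SE 0.09, limma adjusted p = 1.7e-30). Col5a3, the third type V chain, went the other way: 69 reads from 129 stood against 257 from cas in library 1, and 91 against 267 in library 2 (log2 ratio -2.03, SE 0.25). Type V chains therefore covered nearly the whole range of the fibrillar genes, with exact intervals that do not overlap between any of the 3 chains in either library. Col27a1 was slightly higher from cas, with 129 shares of 43.9% and 48.7% (log2 ratio -0.54, SE 0.13). The cartilage collagen genes Col2a1 (0.05, SE 0.33) and Col11a1 (0.47, SE 0.21, limma adjusted p = 0.057) were not called, and neither was Col24a1 (-0.01, SE 0.50), whose libraries had 0.63 and -0.66. With the deposited column totals Col11a1 was called (0.57, limma adjusted p = 0.018).

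Col1a2 and Col3a1 are 2 of the genes read almost only from 129, and Col8a1 is a non-fibrillar gene with a smaller excess. Upstream sequences are shown for these genes and for the neighbouring type IV genes Col4a5 and Col4a6, which differed in their shares. They come from RefSeq (build GRCm38.p6, the same assembly as mm10), read 5′ to 3′ on the gene's strand, and were limited to the longest stretch of the 250 bases before the RefSeq start that lies in no exon of GENCODE M21. The Col1a2 stretch lies inside the annotated span of its gene, whose GENCODE start is upstream of the RefSeq start used. Capitals mark 3 motifs searched on both strands, whose matches shown do not overlap. The TATA box was searched as TATAAA. The CCAAT box was searched by the letters of its name. The GC box was searched as GGGCGG.
Col1a2, chr6:4505370-4505492, plus strand: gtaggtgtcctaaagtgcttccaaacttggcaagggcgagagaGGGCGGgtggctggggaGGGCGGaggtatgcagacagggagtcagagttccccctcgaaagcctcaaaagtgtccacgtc
Col3a1, chr1:45311288-45311537, plus strand: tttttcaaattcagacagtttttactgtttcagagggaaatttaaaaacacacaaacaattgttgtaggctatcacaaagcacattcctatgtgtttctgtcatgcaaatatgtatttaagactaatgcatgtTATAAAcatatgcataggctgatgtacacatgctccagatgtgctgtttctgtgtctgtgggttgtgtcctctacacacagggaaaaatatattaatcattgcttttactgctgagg
Col8a1, chr16:57754738-57754987, minus strand: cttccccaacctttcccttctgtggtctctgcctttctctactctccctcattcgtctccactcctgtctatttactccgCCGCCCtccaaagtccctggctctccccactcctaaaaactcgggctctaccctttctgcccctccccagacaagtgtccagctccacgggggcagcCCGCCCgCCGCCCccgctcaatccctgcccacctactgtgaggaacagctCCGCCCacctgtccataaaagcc
Col4a5, chrX:141475169-141475384, plus strand: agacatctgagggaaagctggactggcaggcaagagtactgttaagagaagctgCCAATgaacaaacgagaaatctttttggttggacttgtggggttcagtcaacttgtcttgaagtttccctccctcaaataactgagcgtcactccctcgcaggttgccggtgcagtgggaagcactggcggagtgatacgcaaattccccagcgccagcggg
Col4a6, chrX:141474077-141474326, minus strand: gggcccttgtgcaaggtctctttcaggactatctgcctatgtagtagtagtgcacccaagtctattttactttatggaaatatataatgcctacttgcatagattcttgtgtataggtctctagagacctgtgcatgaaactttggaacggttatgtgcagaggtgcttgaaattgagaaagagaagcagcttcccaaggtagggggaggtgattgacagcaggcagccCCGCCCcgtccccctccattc

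The Col3a1 stretch held 35.2% G and C and a TATA box, while that of Col8a1 held 60.8% and 4 GC boxes, and both genes had most of their reads from 129. Col1a2 held 59.3% and 2 GC boxes, Col4a5 52.3% and a CCAAT box, and Col4a6 47.6% and a GC box. Of the 38 collagen genes 29 had an entry in the RefSeq table. In the 250 bases before the start, a TATA box was present for 2 of them, a CCAAT box for 12 and a GC box for 18. A collagen gene was counted if any of its entries held a match. Over all 32851 RefSeq promoters, each counted on its own, these letters were found in 12.4%, 33.8% and 32.7%. A match is a description of the letters and not a binding site, and the sequences are the reference's, not those of the 129 or cas alleles.

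The tested basement membrane collagens lay closer to the typical gene than Col1a1, Col1a2, Col3a1 and Col5a2, with Col4a5 the furthest from it. They were not closer to it than the other 6 fibrillar genes, whose median log2 ratio was 0.02 against 0.26 for type IV. Of the 6 type IV genes 5 were tested; Col4a2 and Col4a5 were higher from 129, Col4a1 was higher from cas, and Col4a4 and Col4a6 were not called. Col4a1 and Col4a2, which together form the most widespread type IV molecule, had the most reads: Col4a1 had 1788 from 129 and 1982 from cas in library 1 and 2322 and 2445 in library 2. For Col4a2 the 129 and cas reads were 2243 and 1340 in library 1 and 2632 and 1950 in library 2. The log2 ratio was -0.44 for Col4a1 (SE 0.08, limma adjusted p = 4.1e-08) and 0.26 for Col4a2 (SE 0.08, limma adjusted p = 0.0028), the latter from 0.45 in library 1 and 0.07 in library 2. With 1 shared library size Col4a1 was no longer called (-0.11, limma adjusted p = 0.22). Without library as a block Col4a2 was no longer called (limma adjusted p = 0.21).

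The type IV genes lie head to head in pairs, transcribed away from each other from adjacent starts. The annotated starts of Col4a1 and Col4a2 on chromosome 8 are 21 bp apart, with spans that overlap by 22 bp, and those of Col4a3 and Col4a4 on chromosome 1 are 72 bp apart. Within the first pair, the 129 shares were 47.4% (exact 95% interval 45.8 to 49.0) for Col4a1 and 62.6% (61.0 to 64.2) for Col4a2 in library 1. In library 2 they were 48.7% (47.3 to 50.1) and 57.4% (56.0 to 58.9), so that the intervals of the pair were apart in both libraries. Col4a4 had 68.7% (64.2 to 73.0) in library 1 and 55.1% (50.6 to 59.4) in library 2, a difference between libraries beyond counting error, and its log2 ratio of 0.38 was not called, although it was with the deposited column totals (0.48, limma adjusted p = 0.034). Its partner Col4a3 had 7 reads from 129 and 11 from cas in library 1 and 2 and 12 in library 2, too few for a test.

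On the X chromosome the starts of Col4a5 and Col4a6 are 1309 bp apart. Col4a5 (141475385 to 141689234) had 818 reads from 129 and 154 from cas in library 1, and 1052 and 207 in library 2, with 129 shares of 84.2% (81.7 to 86.4) and 83.6% (81.4 to 85.6). Its log2 ratio was 2.04 (SE 0.15, limma adjusted p = 3.2e-41). Col4a6 had 75 reads from 129 and 70 from cas in library 1, and 90 and 89 in library 2, a share near the typical gene's (log2 ratio -0.27, SE 0.33, limma adjusted p = 0.54). The intervals of this pair were apart in both libraries. Over the 555 tested genes of the X chromosome the median log2 ratio was -0.07, and 4.68% had a ratio at or above that of Col4a5, as had 4.69% of all tested genes. The 3 tested neighbours of Col4a5 within 500 kb that are no collagens had a median of -0.17.

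**Figure D2:**
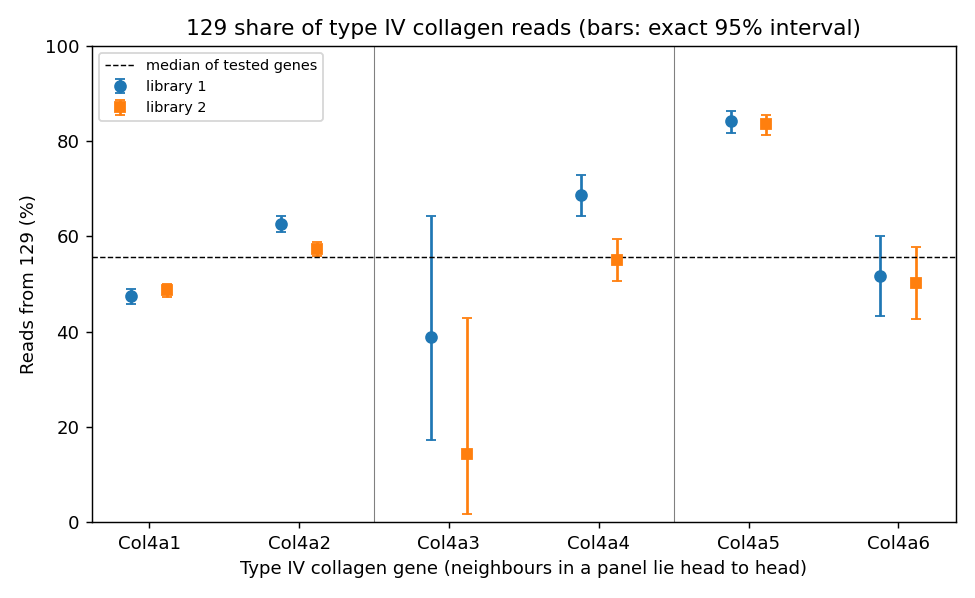
The share of reads from 129 (y axis, percent, with exact 95% intervals as bars) is plotted for the 6 type IV collagen genes (x axis) in library 1 (circles) and library 2 (squares), with the 55.6% of the median tested gene as a dashed line. Each panel holds a pair of genes with adjacent starts; Col4a5 lies near 84% in both libraries, and Col4a6 near 51%.

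Compared as classes, fibrillar collagens had a median log2 ratio of 0.74 over 10 genes (0.88 in library 1 and 0.59 in library 2) and type IV collagens one of 0.26 over 5 genes (0.45 and -0.07). Summed over each class, the 129 share of reads was 74.1% and 75.0% for the fibrillar genes in libraries 1 and 2, and 58.6% and 56.4% for type IV. The difference of the medians, 0.48, was not tested, since the genes were chosen with results known. It describes neither class well: 4 fibrillar genes had a median of 5.42, and the other 6 had a median of 0.02, below that of type IV. Those 4 genes gave 98.2% and 97.9% of their reads from 129 and the other 6 gave 62.7% and 61.5%. The 4 genes were set apart by their ratios, so a gap between them and the other 6 follows from that choice. Without Col24a1 and Col27a1, whose triple helices differ from those of the other fibrillar collagens, the difference of the medians was 2.75.

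FACIT collagens decorate fibrils. Of 8 tested FACIT genes, 5 were called toward 129 and 1 toward cas, against 21.9% and 22.0% of all tested genes. The median of the class was 1.20. Col16a1 (chromosome 4, 130047840 to 130099283) had 165 reads from 129 and 23 from cas in library 1 and 366 and 16 in library 2 (log2 ratio 3.26, SE 0.35), and the ratio was larger in library 2 (4.04) than in library 1 (2.48). Col14a1, which had 173 reads from 129 and 26 from cas in library 1 and 211 and 51 in library 2, reached 2.02 (SE 0.32). Col22a1, known from tissue junctions such as those of muscle and tendon, had 398 and 89 in library 1 and 393 and 74 in library 2 (1.94, SE 0.22). Col12a1 had 238 and 59 in library 1 and 360 and 85 in library 2 (1.70, SE 0.25). Thus these 4 genes were each at least 80.1% from 129 in both libraries. Among tested genes within 500 kb that are no collagens, the highest ratio was 7.71 for Col22a1 (of 2 genes) and 3.42 for Col14a1 (of 6). It was 1.11 for Col16a1 (of 19) and -0.31 for Col12a1 (of 5). Col20a1 (0.70, SE 0.30, limma adjusted p = 0.048) was called by a narrow margin, and not without the block (limma adjusted p = 0.13).

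The cartilage FACIT gene Col9a2 was the exception in this class, with 457 reads from 129 and 496 from cas in library 1 and 367 and 630 in library 2. Its log2 ratio of -0.78 (SE 0.14) came from -0.41 in library 1 and -1.14 in library 2. Col9a3, which encodes another chain of the same type IX molecule, had 0.49 (SE 0.30) without a call. Col19a1 had 27 and 10 reads in library 1 and 18 and 26 in library 2, so its libraries lay on opposite sides (1.05 and -0.83).

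Of the 4 type VI genes, 2 were higher from cas and 1 from 129, against 22.0% and 21.9% of all tested genes. The genes Col6a6, Col6a5 and Col6a4 follow each other on chromosome 9 on the same strand, with gaps of 27917 and 28810 bp between their spans. Col6a5 had 27 and 17 reads from 129 in libraries 1 and 2 against 129 and 222 from cas, the lowest 129 share of the tested collagens (17.3% and 7.11%; log2 ratio -3.21, SE 0.38). Col6a6 had 374 and 796 in library 1 and 430 and 869 in library 2, a share of 32.0% and 33.1% (-1.38, SE 0.13). Col6a4, at the end of the row, was not called with 54.4% and 54.0% (-0.08, SE 0.21). The 15 tested genes within 500 kb of Col6a5 that are no collagens had ratios between -0.92 and 0.63. Col6a3, on chromosome 1, which encodes the long chain of the main type VI molecule, was slightly higher from 129 (0.36, SE 0.15, limma adjusted p = 0.045), a call that was lost without the block (limma adjusted p = 0.19).

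The lattice-forming Col8a1 (chromosome 16, 57624258 to 57754737) had 651 reads from 129 and 53 from cas in library 1 and 886 and 103 in library 2 (log2 ratio 3.01, SE 0.19, limma adjusted p = 3.6e-53). Its partner Col8a2 had 22 and 47 in library 1 and 37 and 32 in library 2, without a call (-0.74, SE 0.50). Among the membrane-spanning collagens, Col23a1 was slightly higher from 129 (0.27, SE 0.12, limma adjusted p = 0.047) and Col25a1 slightly higher from cas (-0.45, SE 0.17, limma adjusted p = 0.022). Col17a1, the hemidesmosomal collagen of epithelia, had 0.18 (SE 0.18) without a call. Of the remaining genes, Col26a1 was higher from 129 (1.26, SE 0.37) and Col28a1 higher from cas (-1.37, SE 0.55). The 6 tested genes within 500 kb of Col28a1 had a median of -1.36, close to its own ratio, and lay between -2.38 and -0.48. The 20 tested genes within 500 kb of Col26a1 that are no collagens had a median of 0.14 and lay between -2.1 and 4.05. Col7a1, the anchoring fibril collagen, had 0.45 without a call, and Col15a1, a basement membrane zone collagen, had 15 reads from 129 and 4 from cas in library 1 and 15 and 5 in library 2.

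Without the block, the calls of Col23a1, Col25a1 and Col28a1 were lost too (limma adjusted p = 0.21, 0.17 and 0.066). In all, 16 of the 24 called collagens were called in the same direction in each of the 9 alternative settings reported here with a test, as far as it was tested there. Of these 16, Col26a1 lost its call in a trial with a count model, which is not reported with values because the deposited unit is RPKM. Of the 16, 12 were higher from 129 (Col1a1, Col1a2, Col3a1, Col5a1, Col5a2, Col4a5, Col8a1, Col12a1, Col14a1, Col16a1, Col22a1 and Col26a1). The 4 higher from cas were Col5a3, Col6a5, Col6a6 and Col9a2.

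Levels of different genes were compared as CPM per 100 kb of annotated gene span, since nuclear RNA includes introns and the lengths in the table do not belong to their genes. On the cas allele the order was led by Col9a2 (265), Col4a1 (145), Col4a2 (90.0), Col5a1 (47.0) and Col6a6 (44.7), where Col5a3 followed with 43.9. On the 129 allele Col9a2 again came first (157), but Col1a1 (123) came second, with Col4a1 and Col4a2 (107 each) and Col1a2 (106) close behind. Their library values show that neighbours in this order were not clearly apart. Only reads over strain differences are assigned, so a level also depends on how many a gene holds, which was not measured. Ranks between genes are therefore rough. Col9a2 and Col1a1 also have the shortest spans of the 38 genes (15.9 and 16.8 kb). Col1a1 had 703 reads from 129 in both libraries together, against 4875 for Col4a2. By this measure Col1a1 ranked 2 of 38 on 129 and 24 on cas, where its level was 3.17. Col1a2 ranked 5 and 30 (cas level 1.89), Col5a2 7 and 27 (2.40), and Col3a1 13 and 38 (0.105), the lowest of all. Conversely Col5a3 ranked 24 on 129 and 6 on cas. In libraries 1 and 2, the 6 genes at least 8-fold higher from 129 held 20.4% and 23.8% of the 129 collagen reads. They held 1.32% and 1.68% of the cas collagen reads. Since these genes were chosen by their ratio, a larger share on 129 than on cas follows from the choice.

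**Figure D3:**
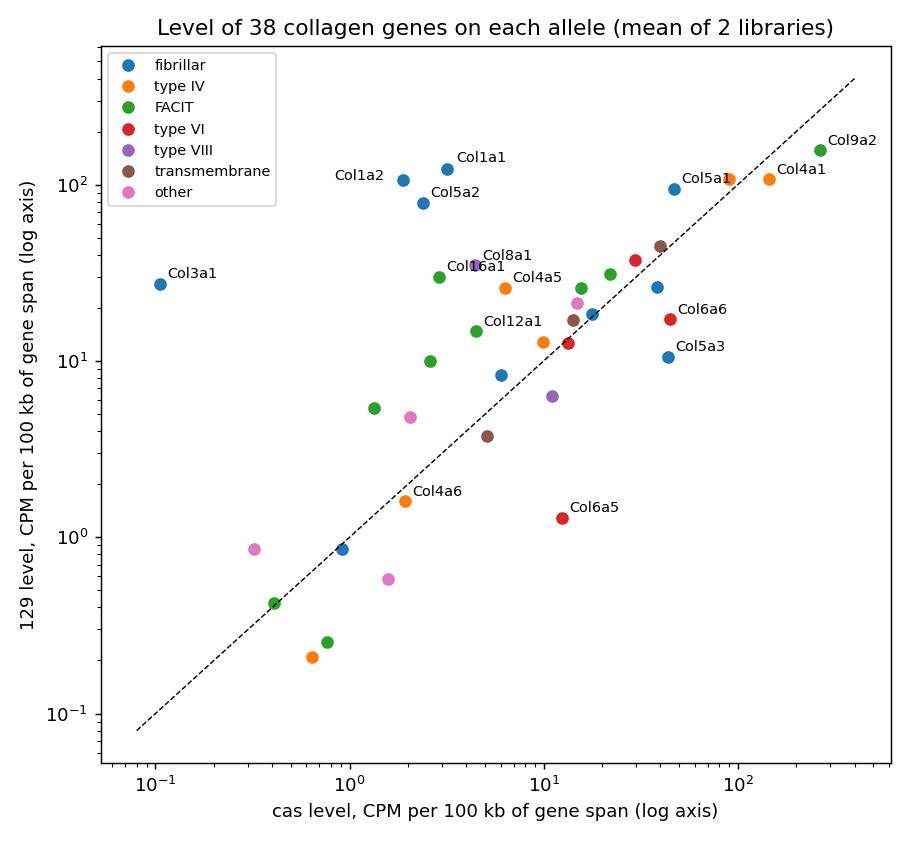
The level of each of the 38 collagen genes on the 129 allele (y axis) is plotted against that on the cas allele (x axis), both as CPM per 100 kb of gene span on log axes, as means of 2 libraries. The dashed line marks equal levels; Col1a1, Col1a2, Col3a1 and Col5a2 stand far above it, and Col6a5 and Col5a3 below it.

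The levels of other genes that fibroblasts are known for were read beside those of the collagens. Of 27 fibroblast markers other than collagens, 21 were tested. Of these, 16 were higher from 129 and 0 from cas, against 21.9% and 22.0% of all tested genes, and the other 5 had no call. Their median log2 ratio was 2.18, with 1.50 in library 1 and 2.48 in library 2. The matrix proteoglycan gene Bgn had 276 reads from 129 and 1 from cas in library 1 and 501 and 0 in library 2, and the matrix glycoprotein gene Tnc had 256 and 3 in library 1 and 488 and 0 in library 2. The hyaluronan receptor gene Cd44 had 5194 and 226 in library 1 and 7474 and 217 in library 2. Fibronectin (Fn1) had a log2 ratio of only 0.16 with most of the list's reads, and the actin-binding Cald1 had 0.76. Summed over the list, 129 gave 38295 and 46894 reads in libraries 1 and 2, and cas gave 20729 and 21447. Timp3, Lum, Twist1 and S100a4 are listed at 0 in both libraries, as is the ES cell gene Sox2, so that a value of 0 in this table need not mean that a gene was silent.

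Markers of ES cells did not share this excess. Of 14 ES cell markers with enough reads, 1 was higher from 129 and 7 from cas, against 21.9% and 22.0% of all tested genes. Those 7 had between 47.6% (Sall4) and 49.9% (Nanog) of their reads from 129. Their calls toward cas are thus relative to the 55.6% of the typical gene, while the reads of the 2 alleles were nearly equal. The ES cell markers had a median of -0.26, and the 129 share of their summed reads was 53.4% and 53.7%. Esrrb (-0.08), Tfcp2l1 (0.00) and Zfp42 (-0.36) had the most reads, while Dppa5a had 0.79 and Sall4 -0.47. Primitive endoderm is a lineage that makes type IV collagen and laminin, and 5 of its 12 genes with enough reads were called toward 129 and 2 toward cas. Lamc1 had 0.26, Lama1 -0.67 and Lamb1 -0.11, while Cubn (4.15) and Ttr (3.56) had the largest ratios of its called genes. Of 3 tested endothelial genes, Tek (1.94) and Kdr (1.12) were higher from 129 and Pecam1 (-0.82) from cas. Of 4 tested chondrocyte genes, Sox9 (4.50) was higher from 129, Acan (-0.90) was higher from cas, and Matn3 had 0.36 without a call. In bulk RNA fewer cells of a type and less RNA per cell cannot be told apart. With the feeder strain not in the labels and no library without feeder cells, reads of feeder RNA and of the 129 allele of the ES cells cannot be told apart.

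**Figure D4:**
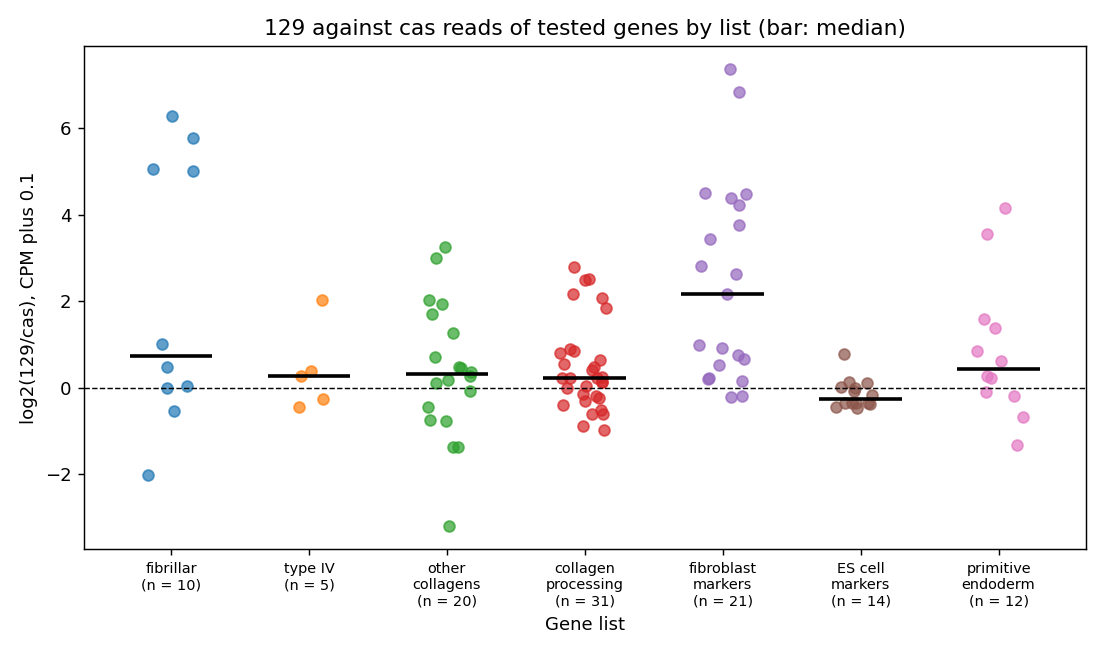
The log2 ratio of 129 to cas reads (y axis) is plotted for each tested gene of 7 lists (x axis), with a bar at each median; 0 is the typical gene. Fibrillar collagens fall into 4 genes at 5.01 or above and 6 at 1.01 or below, and fibroblast markers reach from -0.21 to 7.38, while ES cell markers lie between -0.47 and 0.79.

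A list of genes for modifying, cross-linking or trimming collagen chains was read beside the collagens. All 31 genes of this list were tested, with a median log2 ratio of 0.23, against 0.36 over the 35 tested collagens. Of the 31 genes, 11 were higher from 129 and 5 from cas, against 21.9% and 22.0% of all tested genes, and 15 had no call. Plod2, a lysyl hydroxylase of collagen, had 2229 reads from 129 and 3408 from cas in library 1 and 2466 and 3502 in library 2 (-0.89, SE 0.07). Pcolce2, an enhancer of procollagen cleavage, was also higher from cas (-0.61, SE 0.07). P4ha1, a prolyl hydroxylase subunit that the triple helix needs for its stability, was higher from 129 with 1740 and 798 reads in library 1 and 2519 and 995 in library 2 (0.90, SE 0.09). The protease gene Tll2 (2.80, SE 0.38, with 1.82 and 3.78 in libraries 1 and 2) and the collagen chaperone gene Fkbp10 (2.51, SE 0.73) had the largest ratios of the list's called genes. The lysyl oxidase gene Lox and Sparc belong to this list and to the fibroblast list.

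The 129 reads of the one-sided collagens were also higher in library 2 than in library 1. After scaling, the ratio of library 2 to library 1 in 129 reads was 1.37 for Col1a1, 1.26 for Col1a2, 1.29 for Col3a1, 1.02 for Col5a2, 1.15 for Col8a1 and 1.88 for Col16a1. All 6 lay above 1.00, the median of all tested genes, against 10 of the 29 other tested collagens, whose median was 0.915. Among fibroblast markers other than collagens 19 of 21 lay above 1.00 (median 1.24), with 1.54 for Bgn, 1.62 for Tnc and 1.22 for Cd44. Among ES cell markers 4 of 14 lay above 1.00 (median 0.869). The same ratio in cas reads had a median of 1.16 for the fibroblast markers, 0.92 for the ES cell markers and 1.01 for all tested genes, so the medians of both lists lay on the same side of all genes in cas reads as in 129 reads. For the 6 collagens, which have few cas reads, it was 1.00, and for the other 29 it was 1.10. Type IV collagens had a median of 1.02 and fibrillar collagens outside these 6 genes had values between 0.761 and 1.12. With 1 sample on each side this comparison of libraries has no test, and its part in the allele ratios was not tested. The ratios toward 129 were present in each library alone.

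**Figure D5:**
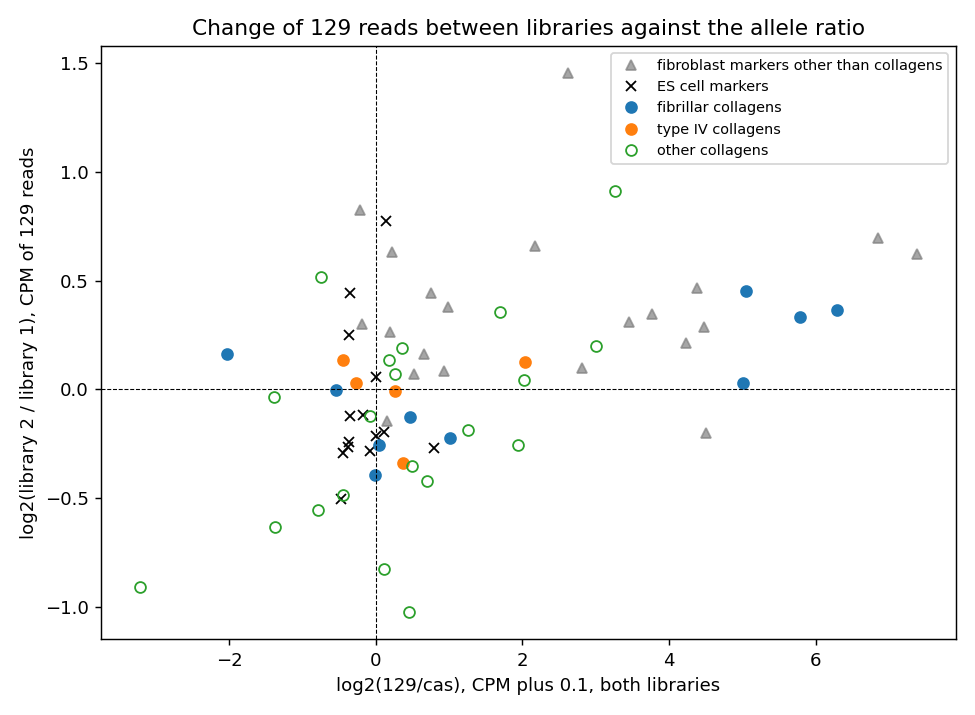
The change of 129 reads from library 1 to library 2 (y axis, log2 ratio of CPM) is plotted against the log2 ratio of 129 to cas reads (x axis) for collagens, fibroblast markers other than collagens and ES cell markers. The 6 collagens at 3 or above on the x axis lie above 0 on the y axis, as do most fibroblast markers, and most ES cell markers lie below 0.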

How the data were processed

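Strand-specific nuclear RNA libraries were sequenced as 100 bp paired-end reads, with earlier reads merged in, per the labels' protocols. The submitters' processing notes name Bowtie2 and build mm10. The sources used here do not give the counting program, the SNPs or whether strand was used. The header of the table speaks of counts, but the deposited values are RPKM: value times row length in kb sums to between 999966.7 and 999996.2 per column. Each product is a whole multiple of 1 step per column (100.0% of values within 0.01 read), which gave whole reads. The deposited lengths are not those of the genes (67 of 46313 matched rows lay within 2 bp of the GENCODE M21 span), which leaves ratios within a gene unaffected.

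Ratios were tested with limma 3.58.1 in R 4.3.3 on log2(CPM + 0.1) of these reads. Columns were scaled by the trimmed mean of M values (TMM), variances were trended, and library was a block, as both allele columns come from 1 RNA. Low genes have their folds understated on this scale, and 1570 chromosome Y rows were left out. Data were simulated with 200 changed genes and 1 noise setting for all genes, which left 15287 genes after the filter. In these, 63.6% of 1.5-fold, 90.9% of 2-fold and 98.5% of 4-fold changes were recovered, with 13 false calls among 179. In the real data 43.9% of tested genes were called, so these rates need not hold there. Alternatives were other scalings, pseudocounts, filters and tests. The collagens, lists and alternatives were chosen with earlier results of these data known. Named are all collagens and, of the other lists, the 3 genes with most reads and up to 2 called genes with the largest ratios.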

Additional observations from a re-analysis of the deposited data

How the results depend on the processing

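Over all genes 6809 were called, and 3954 with no replicate block (library not used to pair the alleles). Called collagens numbered 24, and 18 to 25 under the alternatives reported with values: 18 with no replicate block, 20 with no filter on low values and with a filter of 100 reads, and 23 with an exact binomial test in each library, which was added after seeing the data. The median log2 ratio of the collagens, 0.36, was 0.68 with 1 shared library size, 0.31 without library 1 and 0.63 without library 2. The fibrillar median exceeded the type IV median by 0.48, by 0.74 with no filter, by 0.75 with a filter of 100 reads, by 2.75 without Col24a1 and Col27a1, by 0.66 without library 1 and by 0.44 without library 2. The type IV median, 0.26, was -0.04 without library 1 and 0.45 without library 2. Ratios near 0 that were not called turned positive with 1 shared library size for Col24a1 (0.30), Col6a4 (0.24) and Col4a6 (0.06). With the deposited column totals, which the binomial test also uses, Col24a1 had 0.08 and Col6a4 0.02. Calls of Col25a1, Col27a1, Col28a1 and Col4a1 were lost with 1 shared library size, which by construction moves all ratios up, and Col4a4, Col17a1, Col9a3, Col11a1 and Col7a1 were called toward 129 there. Col11a1 was also called with the deposited totals and the binomial test, and Col4a4 with the deposited totals. The cause of the other changes was not tested. Pseudocounts of 0.5 and 1 changed no call of a collagen, but lowered those called at 8-fold or more from 6 to 4. The planned count models were tried on the recovered reads but are not reported with values, as the deposited unit is RPKM. Both called fewer collagens than limma with the block, one of them fewer than the lower end of this range, and the call of Col26a1 was lost with one of them. Depth limits Col4a3, Col9a1 and Col15a1, and the exact ratio of Col3a1.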
